A study of Mus musculus with 2 samples.

Results

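Foxp3 encodes the forkhead transcription factor that defines regulatory T (Treg) cells, and its transcript was followed here as 1 of the 32285 genes of a 10x 3' single-cell RNA matrix of sorted thymocytes. Its messages were counted as unique molecular identifiers (UMIs), and cells with at least 5000 gene UMIs and 1 genotype hashtag were grouped by a Foxp3 count of 0, 1, 2, and 3 or more. There were 2659 such cells among 4798 barcodes, and 475 of them held at least 1 Foxp3 UMI. The cells came from 2 mice on the C57BL/6 background, 1 Lta-/- mouse that also carried the Foxp3eGFP reporter and 1 Foxp3eGFP mouse with intact Lta, the gene of lymphotoxin alpha. The reporter was therefore shared by both genotypes, and the labels used here give neither its construct nor the age of the mice. Thymocytes were depleted of CD8+ and CD11c+ cells, and living CD3e+ CD4+ CD8- CCR6- cells positive for CD25, for eGFP or for both were sorted, 20000 of each genotype. They were pooled and loaded together in 1 capture, so the mRNA and the hashtag library share all 4798 barcodes. With 1 mouse per genotype there was no replicate. No p-value was computed, and every interval covers counting error only.

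Foxp3 protein binds chromatin with partners such as RUNX1, NFAT and Ikaros family members, and holds a Treg program in place that includes CTLA-4 and the IL-2 receptor chains. In the thymus, CD4 single-positive cells with a strong T cell receptor signal first gain CD25 or Foxp3, and IL-2 acting through STAT5 helps to turn the Foxp3 locus on. Mature cells then gain the receptors for leaving the organ. In mouse build GRCm38, Foxp3 (ENSMUSG00000039521) lies at chrX:7579676-7595243. The RefSeq annotation of that build places the non-coding RNA Flicr at chrX:7573600-7581016, over the 5' end of Foxp3, and Ccdc22 at chrX:7593809-7605420, over its 3' end.

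The start regions of Foxp3 are shown because 7 of 16 tested genes of the IL-2 and STAT5 list, described further on, rose in steps with the Foxp3 count. Each window runs from 250 bases before an annotated start to 50 bases after it, on the plus strand in RefSeq coordinates of GRCm38.p6. Capitals mark the letters TTCNNNGAA, the pattern of STAT dimers, which reads the same on both strands. The upstream Foxp3 window (chrX:7579426-7579725) holds no match, the downstream one (chrX:7580233-7580532) holds 1, and the window of Cish (chr9:107296409-107296708), a STAT5-induced inhibitor of cytokine signalling, holds 2.
Foxp3 upstream start: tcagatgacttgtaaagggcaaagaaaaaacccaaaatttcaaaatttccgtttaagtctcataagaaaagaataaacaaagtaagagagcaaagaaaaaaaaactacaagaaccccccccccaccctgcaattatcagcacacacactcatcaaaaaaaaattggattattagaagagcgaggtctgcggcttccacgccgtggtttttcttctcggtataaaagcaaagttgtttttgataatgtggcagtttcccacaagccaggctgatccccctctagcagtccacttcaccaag
Foxp3 downstream start: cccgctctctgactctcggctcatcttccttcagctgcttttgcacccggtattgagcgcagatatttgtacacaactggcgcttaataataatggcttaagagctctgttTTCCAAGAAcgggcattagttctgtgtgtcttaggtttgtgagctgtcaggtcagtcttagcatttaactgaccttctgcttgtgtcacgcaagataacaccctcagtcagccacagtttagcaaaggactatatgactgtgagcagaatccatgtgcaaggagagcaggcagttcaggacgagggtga
Cish: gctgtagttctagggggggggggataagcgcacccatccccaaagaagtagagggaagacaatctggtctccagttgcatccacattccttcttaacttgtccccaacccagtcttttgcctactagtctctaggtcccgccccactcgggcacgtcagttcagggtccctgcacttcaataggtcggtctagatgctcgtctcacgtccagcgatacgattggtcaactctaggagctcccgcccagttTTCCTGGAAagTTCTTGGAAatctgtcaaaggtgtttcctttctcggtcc
This pattern stood in the windows of 9.55% of the 27025 genes with a promoter sequence, and in 8.17% of the 7383 among the genes tested below. It stood in 10.4% of the 308 genes with a sequence that rose with the Foxp3 count and in 7.57% of the 713 that fell. In the IL-2 and STAT5 list 2 of 14 genes with a sequence held it, Cish and Socs3. The forkhead core GTAAACA, searched on both strands, stood in 4.05% of all genes, in 3.16% of the genes tested, in 5.52% of the rising and in 3.09% of the falling genes, and in none of the 9 named rising genes with a sequence. A match is a run of letters, and no binding was measured.

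Foxp3 transcripts were sparse in both mice. The 1311 Lta-/- cells held 10534302 UMIs (median per cell 6662) and the 1348 Foxp3eGFP cells 11756843 (median per cell 7013). Lta itself was lower in the Lta-/- cells by a log2 ratio of -2.81 (95% interval -3.31 to -2.34), in the direction of the labels. Cells with both hashtags numbered 167 and were left out, and doublets within 1 genotype could not be found this way.

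Foxp3 stood at 36.5 CPM (counts per 1000000 UMIs) in Lta-/- cells (Poisson interval 33.0 to 40.4) and at 40.7 CPM in Foxp3eGFP cells (37.1 to 44.5). A Foxp3 UMI was found in 16.9% of Lta-/- cells (Clopper-Pearson interval 14.9% to 19.1%) and in 18.8% of Foxp3eGFP cells (16.7% to 21.0%). After each cell was thinned to 5000 UMIs the shares were 14.4% and 15.4% in the same order. The log2 ratio of the level, Lta-/- over Foxp3eGFP, was -0.15 with an interval of -0.35 to 0.043, so the difference lay within counting error among these cells. This depended on depth: the ratio was -0.33 (-0.56 to -0.10) within 5000 to 8000 UMIs, -0.28 (-0.51 to -0.049) after thinning and -0.36 (-0.59 to -0.13) in the cells below 5000 UMIs, an alternative added after the data were seen, and these 3 intervals lie below 0. Among cells with at least 1 Foxp3 UMI and 5000 gene UMIs the ratio was -0.024 (-0.22 to 0.17).

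The count was uneven from cell to cell. In Lta-/- cells 1089 had 0 Foxp3 UMIs, 120 had 1, 66 had 2 and 36 had 3 or more, and the highest count was 7. In Foxp3eGFP cells 1095 had 0, 125 had 1, 73 had 2 and 55 had 3 or more, up to 8 in 1 cell. Cells with 3 or more UMIs made up 2.75% of the Lta-/- and 4.08% of the Foxp3eGFP cells. Over both mice, the 3.42% of cells in this top class held 39.4% of the 863 Foxp3 UMIs, and the variance of the count was 2.21 times its mean. A count of 0 at this depth does not mean that a cell lacks the transcript. Median depth hardly differed between the classes, at 6896.5, 6371, 6623 and 6587 UMIs per cell for 0, 1, 2 and 3 or more. Summed UMIs give deep cells more weight, which a median does not show. The 2184 cells with 0 held 18671631 UMIs and the 91 cells with 3 or more held 658814.

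Foxp3 was concentrated in 3 of the 11 groups of cells found by clustering on other genes. Cluster 1 had all 11 measured mature Treg markers at least 1.5-fold higher than the other cells, among them Ctla4, Ikzf2, Nrp1 and Lrrc32, and is called mature Treg-like. A Foxp3 UMI was present there in 51.3% of 189 Lta-/- cells and 49.7% of 191 Foxp3eGFP cells, at 140 CPM (120 to 162) and 149 CPM (129 to 172). Cluster 3 was led by the interferon-induced genes Ifit3, Iigp1 and Ifit1 and by S1pr1, the receptor for thymic exit, and had 3 of 11 mature Treg markers higher. Its share was 38.2% of 165 Lta-/- cells and 44.4% of 180 Foxp3eGFP cells, at 108 and 128 CPM. Cluster 9 was led by Egr3, Nr4a2 and Nr4a3, early targets of the T cell receptor, and is called agonist-signalled-like. It had 10 of 12 agonist-signalled precursor, 7 of 11 mature Treg and 6 of 12 interferon-responding markers higher. Here 12 of 29 Lta-/- cells (41.4%) and 16 of 32 Foxp3eGFP cells (50%) had Foxp3, at 74.9 CPM (41.9 to 124) and 133 CPM (91.1 to 188). The intervals of the genotypes overlapped in each of the 3 clusters.

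The other clusters were much lower. An unnamed cluster with effector and innate genes such as Gzmc, Cxcr6 and S100a4 had Foxp3 in 16.8% of its 107 cells. The proliferating-like cluster had it in 8.26% of 327 cells, at a median of 13800 UMIs per cell, and in 4.28% after thinning to 5000 UMIs. The share was 6.73% of 520 cells in cluster 0, agonist-signalled precursor-like and led by Lad1 and Tnfrsf9, and 5.42% of 240 cells in cluster 2, which stayed unnamed. It was 3.38% in the Igfbp4-high, mature CD4 single-positive-like cluster and 0.889% in the Ccr9-high, immature CD4 single-positive-like cluster (2 of 225 cells). A cluster of 17 cells had none, and a count of 0 (3 cells put in its place) allows a share of cells with a UMI of up to 17.6%. As a background, a small cluster led by immunoglobulin and macrophage genes such as Iglc2, Lyz2 and C1qb, cell types that should lack Foxp3, had it in 4 of 52 cells (7.69%, interval 2.14% to 18.5%, median 12175 UMIs). This cluster was mixed, and 8 of 9 double-positive thymocyte and 12 of 12 proliferation markers were higher there too. Thinned to 5000 UMIs its share was 5.77%, beside 4.62% in cluster 0 and 3.75% in cluster 2, so the shares of clusters 0 and 2 are not read as expression. In CPM cluster 0 was above it, at 12.1 (9.03 to 15.8) and 6.11 (1.98 to 14.2), with overlapping intervals, and no order is read between these 2. Ordered by CPM over both mice, clusters 1, 3 and 9 came first at 145, 119 and 107 with overlapping intervals, followed by the effector and innate cluster at 33.1 (22.5 to 47.0), and every other cluster lay at or below 12.1.

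**Figure D1:**
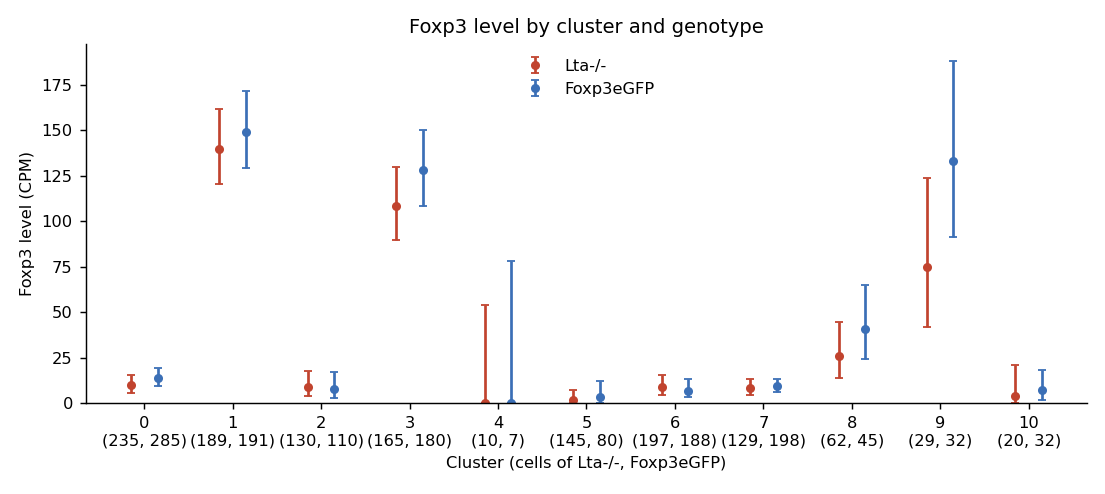
Foxp3 level in CPM on the y axis for the 11 clusters on the x axis, with Lta-/- cells left of Foxp3eGFP cells in each cluster; points are summed UMIs over summed depth and bars are exact Poisson intervals for counting error. Clusters 1, 3 and 9 stand above the rest in both mice, at 140, 108 and 74.9 CPM in Lta-/- cells and at 149, 128 and 133 CPM in Foxp3eGFP cells.

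The make-up of the Foxp3 count classes differed in the same way. The mature Treg-like cluster held 8.61%, 34.3%, 43.2% and 52.7% of the cells with 0, 1, 2 and 3 or more Foxp3 UMIs. Cluster 3 held 9.25%, 30.6%, 28.1% and 31.9% in the same order. The proliferating-like cluster held 13.7%, 6.53%, 5.76% and 3.30%, and the Igfbp4-high cluster 17.0%, 2.86%, 2.88% and 2.20%. A gene that differs between clusters can therefore also differ between the classes, and the 4 classes do not compare like cells.

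**Figure D2:**
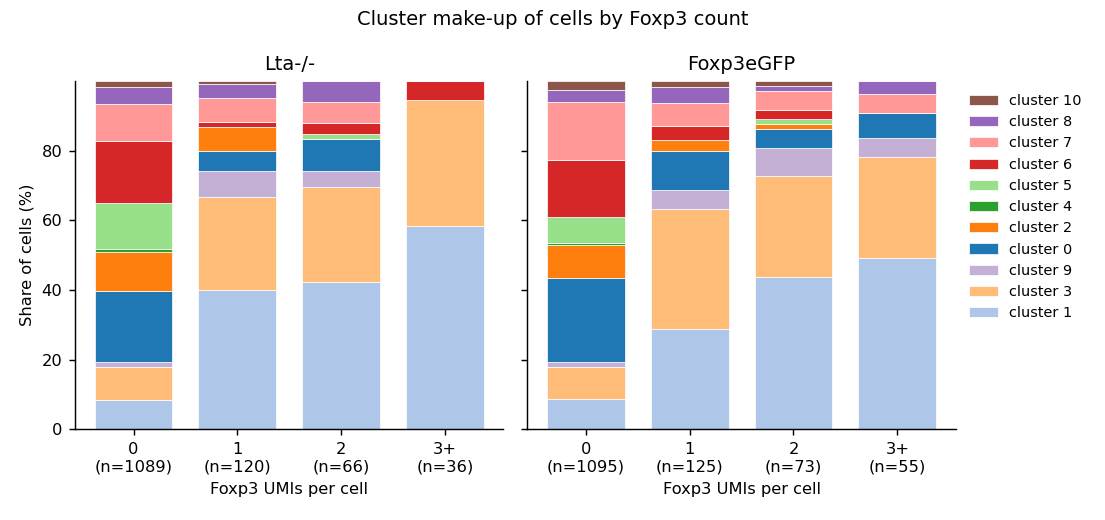
Share of cells in percent (y axis) that each cluster takes of the cells with 0, 1, 2 and 3 or more Foxp3 UMIs (x axis), for Lta-/- cells on the left and Foxp3eGFP cells on the right; n is the number of cells in a class. The bottom segment, cluster 1, is largest in the class with 3 or more UMIs in both mice.

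Genes were then read over the 4 classes. A gene is said to rise in steps when its CPM was strictly higher in each class than in the one before and at least 1.5-fold higher at 3 or more than at 0, and to fall in steps in the opposite case. This is a rule of order and size, not a test. Of 9261 genes with at least 100 UMIs, 386 (4.17%) rose and 880 (9.5%) fell over both mice together. In Lta-/- cells 241 of 7750 genes (3.11%) rose and 573 (7.39%) fell, and in Foxp3eGFP cells 342 of 7965 (4.29%) rose and 751 (9.43%) fell. Genes that rose in both mice numbered 63 of the 7646 tested in both (0.824%), which is 26.1% of those of Lta-/- and 18.4% of those of Foxp3eGFP cells. Those that fell in both numbered 167 (2.18%). The median log2 ratio over all tested genes was -0.10.

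The genes with the largest rises were Treg surface and signalling genes. Socs2, a STAT5-induced inhibitor of cytokine signalling (chr10:95383903-95417321), had 5.39, 28.0, 37.4 and 60.4 CPM in Lta-/- cells and 5.53, 24.6, 39.6 and 66.0 CPM in Foxp3eGFP cells at 0, 1, 2 and 3 or more Foxp3 UMIs. The log2 ratio of 3 or more over 0 was 3.54 (2.99 to 4.08) over both mice. Rgs1, which dampens G protein signalling from chemokine receptors (chr1:144244669-144249104), had 39.6, 177, 223 and 287 CPM in Lta-/- and 37.4, 170, 288 and 442 CPM in Foxp3eGFP cells, a log2 ratio of 3.30 (3.09 to 3.51). Both genes climbed through every class in both mice.

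Il2ra, which encodes CD25 (chr2:11642792-11693194), had 42.2, 186, 219 and 253 CPM in Lta-/- and 54.3, 214, 229 and 421 CPM in Foxp3eGFP cells, a log2 ratio of 2.87 (2.65 to 3.07). CD25 was itself a gate of the sort, which admitted cells without eGFP only if they carried it. Ctla4, the inhibitory receptor through which Treg cells remove costimulatory ligands (chr1:60909025-60915832), had 24.8, 118, 136 and 166 CPM in Lta-/- and 28.7, 98.5, 164 and 208 CPM in Foxp3eGFP cells. Its log2 ratio was 2.83 (2.54 to 3.12), and a Ctla4 UMI was present in 14.2%, 45.3%, 55.4% and 56.0% of the cells of the 4 classes. The largest single step of Il2ra and Ctla4 in both mice lay between 0 and 1 as a fold, and the top class was above the class with 2.

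Further genes among the 12 named rising genes included surface and regulatory genes. Gpr83, a G protein-coupled receptor enriched in Treg cells, had a ratio of 2.30, and Cd55, which restrains complement, one of 2.39. Coro2a, an actin-binding coronin, reached 2.89, the splicing regulator Mbnl3 2.14, the MYC antagonist Mxd1 1.88, the ADP-ribosyltransferase Art2b 1.73 and the sorting nexin Snx18 1.73. Of these, only Snx18 kept the strict order of all 4 classes in each mouse. Coro2a, Gpr83 and Mxd1 missed it in Lta-/- cells, and Cd55 and Art2b in Foxp3eGFP cells. Mbnl3 kept it in neither, with 56.6 CPM at 3 or more against 80.8 at 2 in Lta-/- cells. Over both mice Cd55 was nearly level between 2 and 3 or more, at 125.93 and 125.98 CPM.

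**Figure D3:**
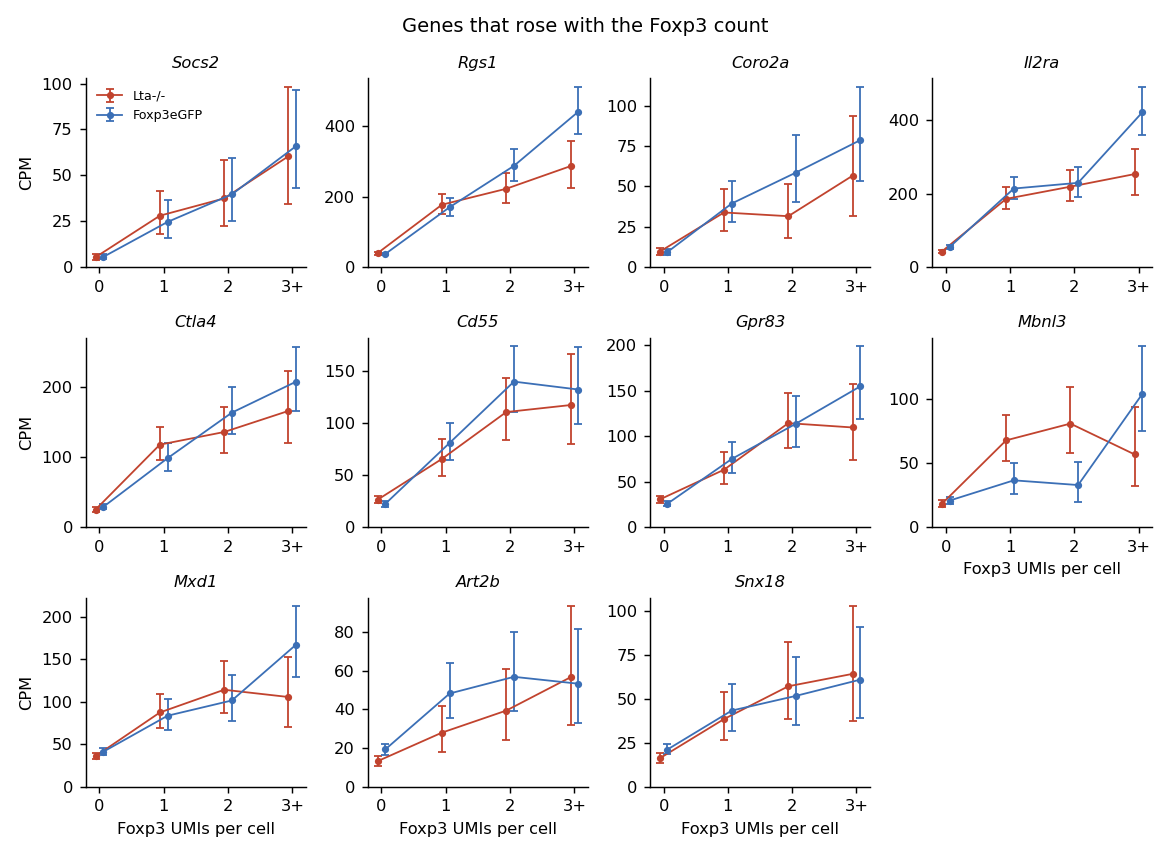
Level in CPM (y axes, each from 0) of 11 of the 12 named rising genes at 0, 1, 2 and 3 or more Foxp3 UMIs per cell (x axes). Lta-/- cells are in red and Foxp3eGFP cells in blue, and bars are exact Poisson intervals for counting error. All 11 are lowest in cells without a Foxp3 UMI in both mice, which the rule that chose them nearly fixes. Il2ra at 3 or more is at 253 CPM in Lta-/- cells and 421 CPM in Foxp3eGFP cells.

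The Treg signature list, 28 genes known to mark Treg cells, had 23 members tested. Of these 10 rose in steps and 1 fell, where 4.17% of all genes rose and 9.5% fell. The median log2 ratio of 3 or more over 0 was 1.17, against -0.10 for all genes. In Lta-/- cells 6 rose and 2 fell of 21, and in Foxp3eGFP cells 11 rose and 0 fell of 21. Ikzf2, the Ikaros family factor Helios, was the most abundant, with 710, 1198, 1226 and 1278 CPM (log2 ratio 0.85, 0.75 to 0.95). It was found in 58.2% of the cells with 0 Foxp3 UMIs and in 94.5% of those with 3 or more. Nrp1, the semaphorin co-receptor neuropilin-1, had a ratio of 2.31 and the ecto-enzyme CD73 gene Nt5e 1.80. The folate receptor gene Izumo1r had 1.17 and Tnfrsf4, which encodes OX40, 1.08. By mouse, Nrp1, Nt5e, Gpr83 and Il2rb were called in Foxp3eGFP cells only, and Ikzf2 in neither. Missing the strict order, though high in the Treg-like cluster, were Lrrc32, the surface anchor of latent TGF-beta, at 8.73, 48.6, 72.6 and 62.2 CPM, Ikzf4, the Ikaros factor Eos, at 52.3, 137, 137 and 176 CPM, and Tnfrsf18, which encodes GITR, at 241, 488, 465 and 508 CPM. Tnfrsf9, which encodes 4-1BB and marks recently signalled cells, was the member that fell, with 209, 162, 138 and 131 CPM and a ratio of -0.68 (-1.01 to -0.37). By mouse it was called in Lta-/- cells only. Inside the mature Treg-like cluster its direction was the opposite, with 163 CPM at 2 or more and 101 CPM at 0 (ratio 0.69, 0.32 to 1.05).

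In the IL-2 and STAT5 list 7 of 16 tested members rose and 0 fell, with a median log2 ratio of 0.89, where 4.17% of all genes rose and 9.5% fell. In Lta-/- cells 5 rose and 0 fell of 15, and in Foxp3eGFP cells 6 rose and 1 fell, the repressor gene Gfi1. The receptor chains Il2ra and Il2rb (ratio 1.83) rose, as did Stat5a (0.81) and the feedback inhibitors Socs1 (0.96) and Socs2. The kinase gene Pim1 (1.44) and the survival gene Bcl2 (1.07) rose too. By mouse, Il2rb and Bcl2 were called in Foxp3eGFP cells only, and Pim1 in neither. Stat5a had 44.7, 57.2, 61.1 and 68.0 CPM in Lta-/- and 45.1, 61.0, 84.4 and 86.3 CPM in Foxp3eGFP cells, in order in both. Cish, whose window is printed above, had 31.7, 72.3, 108 and 110 CPM in Lta-/- cells, where it rose in steps. In Foxp3eGFP cells it had 41.5, 102, 148 and 129 CPM, so that the top class was below the class with 2. Stat5b, the second STAT5 gene, had a ratio of 0.37 with an interval that includes 0 (-0.073 to 0.77).

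Of the genes of 30 Foxp3 protein partners tested, 2 rose and 3 fell, shares near those of all genes (4.17% and 9.5%), and the median log2 ratio was 0.11. Stat3, a cytokine-activated factor, and the acetyltransferase gene Ep300 rose in Lta-/- cells, where Runx3 fell, and in Foxp3eGFP cells 2 rose, Ikzf4 and Rel, and 4 fell. Rel, the NF-kB subunit that also acts on the Foxp3 locus, rose with 133, 209, 237 and 281 CPM (ratio 1.08, 0.85 to 1.29), and Ikzf2, called in neither mouse alone, was the other rise. Runx1 had 87.2, 63.0, 79.1 and 92.6 CPM, with a ratio of 0.088 (-0.31 to 0.45). Cbfb, the shared subunit of the RUNX factors, fell with 44.1, 35.8, 24.8 and 18.2 CPM, a ratio of -1.27. The histone methyltransferase gene Ezh2 and the T cell factor Tcf7 fell with ratios of -1.22 and -0.90. By mouse, Cbfb and Tcf7 were called in Foxp3eGFP cells only, and Ezh2 in neither. Satb1, a genome organiser required early in the Treg lineage, had 766, 405, 422 and 395 CPM, a ratio of -0.96 (-1.14 to -0.78) without the strict order.

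Among 36 regulators of the Foxp3 locus 4 rose and 4 fell, where 4.17% of all genes rose and 9.5% fell, with a median ratio of 0.083. By mouse, 3 rose and 2 fell of 35 in Lta-/- cells, and in Foxp3eGFP cells 2 rose and 5 fell of 34. Rel, Stat5a, the DNA demethylase gene Tet3 (0.75) and the egress factor Klf2 (0.67) rose. By mouse, Klf2 was called in Lta-/- cells only, Rel in Foxp3eGFP cells only and Tet3 in neither. Dnmt1 and Uhrf1, which copy DNA methylation at replication, fell together with Smad2 and Cbfb. Among these falls only Uhrf1 was called in each mouse. Dnmt1 had 124, 94.5, 75.4 and 62.2 CPM, and Uhrf1 41.0, 21.9, 15.6 and 6.07 CPM (ratio -2.76). Without the proliferating-like cluster and the clusters with B, plasma or myeloid markers, a choice made after the data were seen, the ratio of Dnmt1 was -0.15 (-0.66 to 0.33) and that of Uhrf1 -0.27 (-2.17 to 1.13), and neither fell in steps. Ezh2 then had a ratio of -0.32 (-0.78 to 0.10). Cbfb and Tcf7 still fell in steps, with ratios of -0.75 (-1.72 to 0.068) and -0.96 (-1.16 to -0.76). Rel, Stat5a and Klf2 still rose in steps, and Tet3, with a ratio of 0.58 (0.26 to 0.89), did not.

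Genes that Treg cells are known to repress gave a mixed count. Of 18 tested, 2 rose and 4 fell over both mice, where 4.17% of all genes rose and 9.5% fell. The median ratio was -0.41. Among Lta-/- cells 0 rose and 0 fell by this rule of order and size, and in Foxp3eGFP cells 1 rose and 3 fell. Cd40lg, the helper ligand, had 76.2, 28.8, 27.6 and 13.7 CPM (ratio -2.48), Pde3b 28.7, 14.4, 8.27 and 7.59 CPM (-1.92) and Igfbp4 280, 117, 113 and 98.7 CPM (-1.51). Tcf7 was the other fall, and Igfbp4 was called in neither mouse alone. Il7r, the IL-7 receptor gene, had 265, 83.8, 94.7 and 128 CPM, so its lowest class was that with 1 UMI. Bcl2 and Treml2, although on this list, rose, Treml2 without a call in either mouse alone. The effector cytokines Il2, Ifng and Il4 had at most 1 UMI each in the class with 3 or more.

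Genes of maturation and egress rose in 8 of 19 cases and fell in 0, with a median ratio of 0.58. Over 3 classes inside the mature Treg-like cluster, 0 of 18 rose and 1 fell, where 3.35% of all genes rose and 1.5% fell. Inside cluster 3, 2 of 17 rose and 0 fell, where 1.84% of all genes rose and 2.67% fell. The medians there, of 2 or more over 0, were 0.070 and -0.0023. Over all cells, S1pr1 had 135, 306, 316 and 390 CPM (ratio 1.54) and Gimap3 202, 429, 449 and 610 CPM (1.59). Ms4a4b, a surface protein of mature T cells, had 874, 1412, 1555 and 1796 CPM (1.04). By mouse, S1pr1 was called in Lta-/- cells only. Its ratio of 2 or more over 0 was 0.16 (-0.061 to 0.38) inside the mature Treg-like cluster and 0.19 (-0.049 to 0.42) inside cluster 3. Ccr7, the chemokine receptor that guides medullary entry, had 244, 261, 253 and 255 CPM, with a ratio of 0.063. Of the 8 immature CD4 single-positive markers 0 rose and 3 fell, and the summed level of all 8 was 2190, 1299, 1181 and 1154 CPM. Of the falls, Ccr4, Itm2a and Sox4, only Itm2a was called within a mouse, in Foxp3eGFP cells. In the interferon response list 2 of 19 rose, Irf7 and Igtp, and 0 fell. By mouse, Irf7 was called in Foxp3eGFP cells only. In the T cell receptor signal list 3 of 22 rose and 1 fell, beside 4.17% rising and 9.5% falling among all genes, and Nr4a1 had 49.2, 77.4, 69.9 and 41.0 CPM, highest in the middle classes.

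Among the ligands, Ltb, the membrane partner of lymphotoxin alpha, had 505, 898, 1032 and 884 CPM in Lta-/- cells and 498, 784, 931 and 1261 CPM in Foxp3eGFP cells, and rose in steps over both together (ratio 1.15). In Foxp3eGFP cells Lta had 22.3, 44.3, 44.8 and 99.0 CPM and rose in steps, with a ratio of 2.15. In Lta-/- cells it had 3.71, 8.17, 3.94 and 0 CPM, below the Foxp3eGFP cells in every class.

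**Figure D4:**
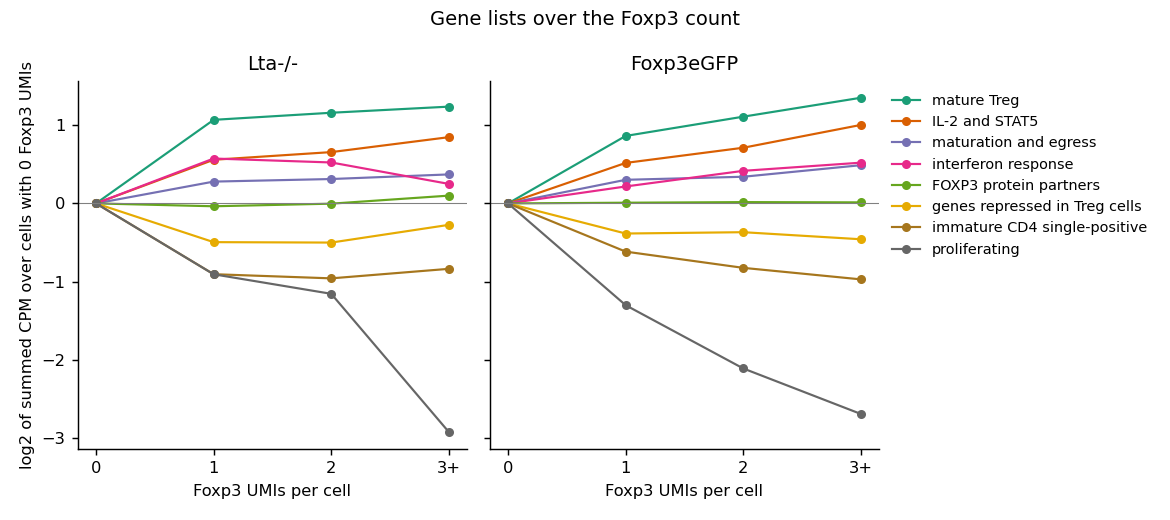
Summed level of 8 gene lists as a log2 ratio to the cells with 0 Foxp3 UMIs (y axis) at 0, 1, 2 and 3 or more Foxp3 UMIs (x axis), in Lta-/- cells on the left and Foxp3eGFP cells on the right. The mature Treg markers are highest at 3 or more, with a log2 ratio of 1.24 in Lta-/- and 1.35 in Foxp3eGFP cells, the partner genes stay near 0, and the proliferation markers are lowest, at -2.92 in Lta-/- and -2.69 in Foxp3eGFP cells.

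The largest falls were genes of DNA replication and cell division. Pclaf, a clamp-associated replication factor, had 244, 106, 51.2 and 3.78 CPM in Lta-/- and 316, 122, 62.03 and 5.08 CPM in Foxp3eGFP cells, a log2 ratio of -5.95 (-8.23 to -4.40) that rests on 3 UMIs in the top class. Tyms, which makes thymidylate, had a ratio of -3.84 from 4 UMIs at 3 or more. The kinetochore gene Spc25 had -5.28 (-10.6 to -2.80) and the histone chaperone gene Asf1b -5.10 (-10.4 to -2.62), each from 1 UMI there. Fbxo5, which inhibits the anaphase-promoting complex, had -4.51 from 2 UMIs. Rrm2, a subunit of ribonucleotide reductase, had 0 UMIs at 3 or more and so a log2 ratio of -4.46 or lower, with 3 counts put in place of the 0. The histone genes Hist1h2ap, Hist1h1b, Hist1h3c, Hist1h2ae and Hist2h2ac had ratios between -6.33 and -4.12, and reads of such near-identical copies are assigned with uncertainty. Lyz2, a lysozyme of macrophages, was the last of the 12, with a ratio of -5.30 from 1 UMI at 3 or more.

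Marker lists of several cell types were also lower at 3 or more than at 0, and the cause was not tested. Of the 12 proliferation markers 11 fell, where 9.5% of all genes fell. The summed level of the 12 markers was 2912, 1327, 913 and 443 CPM. The myeloid or dendritic markers summed to 211, 221, 130 and 121 CPM and the B cell markers to 289, 221, 38.6 and 33.4 CPM, with Pax5 at 0 throughout. Without the proliferating-like cluster and the clusters with B, plasma or myeloid markers, 2263 cells remained, 88 of them with 3 or more Foxp3 UMIs. These clusters were named by such markers, so smaller falls of those genes without them are built in. Then 257 of 8568 genes (3%) rose and 513 (5.99%) fell, of which 217 and 396 were also called among all cells. The same 12-gene rule then gave the same rising genes but for Pim1 (log2 ratio 1.79) in place of Cd55. The 12 falls were smaller and of another kind: the scaffold gene Mpp6 (-2.22), the T cell transcription factor Runx3 (-2.21), the immature T cell gene Itm2a (-2.07), Marcksl1 (-1.95) and Bcl2a1d (-1.63), a BCL2 relative, were among them. In the lists, 7 of 23 Treg signature, 5 of 16 IL-2 and STAT5 and 5 of 19 maturation and egress genes then rose in steps. In the same order 1 (Tnfrsf9), 2 (Jak3 and Gfi1) and 0 fell, and the medians of these lists were 1.01, 0.70 and 0.55. Ikzf2, Nrp1, Nt5e, Tnfrsf4, Socs1, Bcl2, S1pr1, S1pr4 and Gimap3 no longer rose in steps, while Ikzf4 now did. The ratios of the genes no longer called stayed positive, from 0.48 for Ikzf2 to 2.16 for Nrp1. Of the 18 tested genes that Treg cells are known to repress, 0 then rose and 2 fell, Tcf7 and Pde3b. Itm2a had 853, 338, 251 and 204 CPM, and Runx3 51.3, 21.1, 17.5 and 11.1 CPM.

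Inside the mature Treg-like cluster the steps were much smaller. There 188, 84, 60 and 48 cells had 0, 1, 2 and 3 or more Foxp3 UMIs, and the last 2 classes were joined. Of 3458 genes with enough UMIs, 116 (3.35%) rose over the 3 classes and 52 (1.5%) fell. The genes followed here were chosen for their values over all cells, these cells included. Il2ra had 384 CPM at 2 or more and 218 CPM at 0, a log2 ratio of 0.82 (0.58 to 1.06), where over all clusters it was 2.49. Ctla4 had 192 and 123 CPM (0.64, 0.30 to 0.97), Gpr83 164 and 100 CPM (0.71) and Rgs1 389 and 277 CPM (0.49). Lrrc32, with 88.3 CPM at 2 or more and 39.8 CPM at 0, had a ratio of 1.15 (0.60 to 1.71), and Penk, the enkephalin precursor gene, with 57.6 and 25.5 CPM, had one of 1.18.

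Other Treg genes hardly differed inside this cluster. Ikzf2 had 1267 CPM at 2 or more and 1218 CPM at 0, a ratio of 0.057 (-0.059 to 0.17). Tnfrsf18 had a ratio of 0.077 (-0.095 to 0.25), Ikzf4 0.039 (-0.28 to 0.35), Nrp1 -0.19 (-0.55 to 0.16) and Nt5e -0.23 (-0.74 to 0.27). Igfbp4 was lower, with 48.6 CPM at 2 or more and 134 CPM at 0 (-1.46, -2.01 to -0.94), and so was Tnfsf8, the CD30 ligand gene (-0.96). In the Treg signature list, 3 of the 21 members tested inside the cluster rose and 0 fell, with a median of 0.26. In the IL-2 and STAT5 list 1 of 13 rose there and 0 fell, with a median of 0.43. Of all genes tested there 3.35% rose and 1.5% fell. These cells were clustered on the genes now compared, which narrows their range, although Foxp3 and Il2ra were not among the genes used.

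In cluster 3, with 202, 75, 39 and 29 cells, 58 of 3147 genes (1.84%) rose over 3 classes and 84 (2.67%) fell. Of the IL-2 and STAT5 list 4 of 10 tested genes rose there and 0 fell, with a median of 0.38. The ratios of several genes were larger in value than in cluster 1, a difference that was not tested. Il2ra had 180 CPM at 2 or more and 64.7 CPM at 0 (1.47, 1.02 to 1.93), Ctla4 169 and 72.4 CPM (1.22, 0.77 to 1.67), Rgs1 256 and 82.4 CPM (1.64) and Lrrc32 52.6 and 7.70 CPM (2.77, with a lower bound of 1.65). Ikzf2, with 1244 and 959 CPM, had a ratio of 0.38 (0.23 to 0.52), and Art2b one of -0.51 (-1.32 to 0.23).

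**Figure D5:**
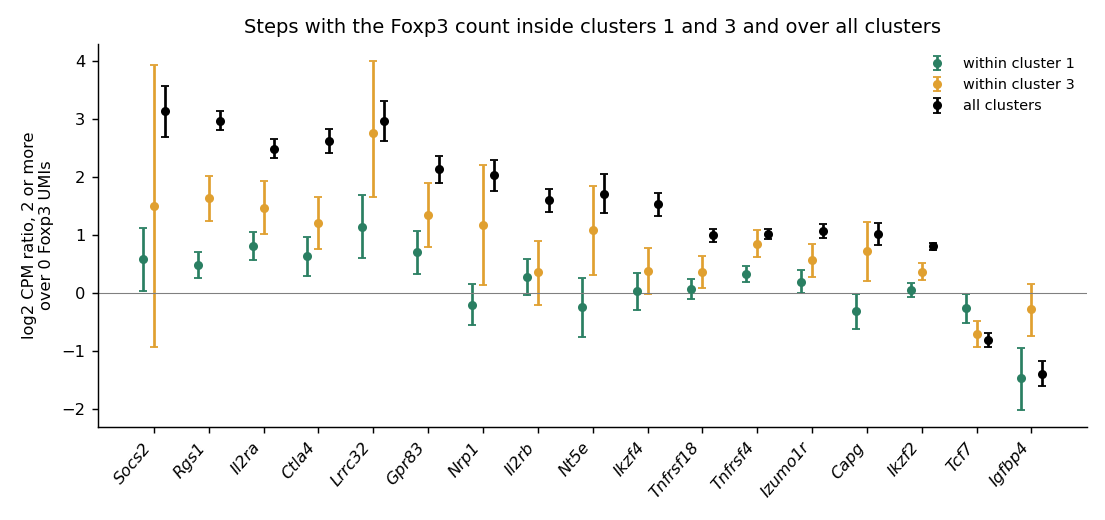
Log2 ratio of CPM in cells with 2 or more over cells with 0 Foxp3 UMIs (y axis) for 17 genes (x axis), inside the mature Treg-like cluster 1 (green), inside cluster 3 (yellow) and over all clusters (black); bars are exact intervals for counting error. Inside cluster 1, Il2ra, Ctla4, Lrrc32 and Gpr83 stay above 0 while Ikzf2, Ikzf4, Tnfrsf18 and Nrp1 lie close to it.

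On the X chromosome, Flicr had 3.32, 6.41, 21.1 and 22.8 CPM over the 4 classes, a log2 ratio of 2.78 (1.86 to 3.61) from 62, 12, 23 and 15 UMIs. It was the 1 gene of the 8 tested neighbours of Foxp3 that rose over both mice, and 0 fell. Over all genes 4.17% rose and 9.5% fell. Flicr was called in neither mouse alone. Inside the mature Treg-like cluster it had 28.2 CPM at 2 or more and 32.6 CPM at 0, a ratio of -0.21 (-1.03 to 0.57). Ccdc22, on the other side, had 22.8, 14.95, 7.35 and 9.11 CPM (ratio -1.32). Both overlap Foxp3, and the rule by which their reads were assigned is not stated in the sources used. The farther neighbours Prickle3, Wdr45, Praf2 and Gpkow had ratios between -0.28 and 0.23, with intervals that all include 0, Plp2 one of -0.79 and Ppp1r3f one of 1.37, and Cacna1f and Magix had no UMI. Among 12 tested forkhead genes 0 rose and 1 fell, Foxj3 (-0.65, -1.66 to 0.20), shares near those of all genes. Foxp1, of the same forkhead subfamily, had 351, 391, 410 and 452 CPM (ratio 0.37), and Foxo1, which acts on the Foxp3 locus, 89.5, 112, 124 and 129 CPM (0.53).

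Likeness to Foxp3 was also read across 20 pools, 10 of each genotype, made of the clusters with at least 20 cells in a mouse. Over 4635 genes, Pearson's r with Foxp3 on log2(CPM + 10) had a median of -0.12, and 2 genes reached 0.9. Ctla4 was the most like at 0.95, with 0.96 over the Lta-/- and 0.95 over the Foxp3eGFP pools. Gbp5, an interferon-induced GTPase, followed at 0.90, then Cd55 at 0.90, Rgs1 at 0.89, Ifit1bl1, from the interferon-induced Ifit family, at 0.86, and Mxd1, Ecm1 and Art2b at 0.85. Ctla4 had 122 CPM in Lta-/- and 158 CPM in Foxp3eGFP cells of cluster 1, and 11.2 and 3.36 CPM in the immature CD4 single-positive-like cluster. Il2ra stood in place 11 with an r of 0.84. The pools share 1 capture and the clusters were made from these genes, Foxp3 and Il2ra excepted, so r is a description only.

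Foxp3 was less frequent in deeper cells. It was found in 21.3% of cells with 5000 to 6000 UMIs, 18.1% with 6000 to 8000, 16.1% with 8000 to 12000 and 12.02% with more, at 68.1, 50.4, 32.3 and 11.2 CPM. The proliferating-like cluster made up 0.588%, 1.69%, 16.6% and 58.7% of the same bands. Within 5000 to 8000 UMIs alone, Foxp3 was present in 18.2% of Lta-/- cells and 21.2% of Foxp3eGFP cells.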

How the data were processed

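The deposited matrix of 1 capture holds raw UMI counts, whole numbers that the authors left without normalization. The submitters' processing notes name Cell Ranger 6.0.1 and the builds mm10 and GRCm38, and the chemistry was 10x 3' v3.1 per the labels' protocols. Annotation release, strand setting and cell calling are not given in the sources used, and the matrix has no eGFP feature.

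Filters of 500 genes per barcode and of 10% mitochondrial UMIs took out 160 barcodes, and cells under 5000 gene UMIs were then set aside. To be assigned, a cell needed 10 counts of 1 hashtag, and 80% of its hashtag counts from it. The 2 genotypes were read this way, and its direction came from the deposited feature names, since the labels' protocols number the antibodies differently. No doublet caller was run, so doublets within a genotype remain.

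UMIs were summed over cells and given as counts per 1000000 (CPM). Intervals at 95% are exact (Poisson, Clopper-Pearson, or conditional binomial for ratios). PCR copies are collapsed by the UMIs, and the intervals cover counting error only. Genes needed 100 UMIs. A ratio against 0 counts used 3 counts. The 12 genes named per direction had the largest ratio of 3 or more over 0 among genes called over both mice, ordered over 0, 1 and 2 or more in each mouse, with 50 CPM in the higher end class. Left out were Foxp3, mitochondrial, ribosomal protein, Gm, Rik and V(D)J genes and a few markers of sex, but not other X-linked genes. That rule was met by 132 rising and 263 falling genes. 1 of the rising genes is not reported here. List members were named as well, as were the 8 genes most like Foxp3.

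Clusters came from 2000 variable genes without Foxp3, Il2ra, Lta and Ltb, 30 components, 15 neighbours and Leiden resolution 0.6, and carry "-like" names from marker lists. Software was Python 3.11.15, scanpy 1.11.5, scikit-learn 1.9.0, igraph 0.11.9, numpy 2.4.6, scipy 1.17.1, pandas 2.3.3 and matplotlib 3.10.9, and the step rule was tested on simulated data. Promoters are from RefSeq. The gene, the lists and the clusters to compare were chosen with earlier results of these data known, and the STAT pattern after the step results.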

Additional observations from a re-analysis of the deposited data

Results flagged for a closer look

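Some list genes had ratios of 3 or more over 0 Foxp3 UMIs of opposite sign in the 2 mice. None of these differences was tested, since each genotype is 1 mouse. Maf, a factor of effector and gamma-delta T cells, had a log2 ratio of -2.79 in Lta-/- cells, from 1 UMI in the top class, and 0.82 in Foxp3eGFP cells. Sirt1, a deacetylase gene, had 1.54 in Lta-/- cells and -1.28 in Foxp3eGFP cells. The forkhead gene Foxk2 had 0.96 in Lta-/- cells and -2.57 in Foxp3eGFP cells. These rest on few UMIs. Foxk2 had 7 at 3 or more over both mice without the proliferating-like and the B, plasma or myeloid clusters. Prickle3, a neighbour of Foxp3, had -0.89 in Lta-/- cells and 0.76 in Foxp3eGFP cells. Tnfrsf1b, the TNF receptor 2 gene, had -0.83 in Lta-/- cells and 0.61 in Foxp3eGFP cells.

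Foxp3 was also present in cells outside the comparisons. A Foxp3 UMI was found in 35.3% of the 167 cells with both hashtags (interval 28.1% to 43.1%), at a median of 10859 UMIs per cell. Of the cells below 5000 UMIs, 20.8% of 933 Lta-/- cells and 25.3% of 861 Foxp3eGFP cells had one, at median depths of 4022 and 3954 UMIs in the same order. Their Foxp3 levels were 83.5 CPM in Lta-/- and 107 CPM in Foxp3eGFP cells, above those of the deeper cells.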

How the results depend on the processing

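No paired analysis was possible because each genotype is 1 mouse and both share 1 capture. The log2 Foxp3 ratio, Lta-/- over Foxp3eGFP, stayed negative under 6 alternatives, between -0.33 and -0.067, and was -0.36 in the cells below 5000 UMIs. Its interval lay below 0 at a minimum of 3000 UMIs (-0.32 to -0.020), within 5000 to 8000, thinned, and below 5000 UMIs, but not in all cells with at least 5000 UMIs. The 12 named rising genes ranged from 0.34 to 3.85 over the alternatives, and their choice nearly fixes the sign. Under 4 alternatives the r of Ctla4 lay between 0.94 and 0.96, above that of each other gene named as most like. All genes were not ranked again. The share of cells with Foxp3 depended on depth. It was 21.4% of Foxp3eGFP cells at a minimum of 3000 UMIs, 21.2% within 5000 to 8000 UMIs, and 14.1% of Lta-/- and 14.7% of Foxp3eGFP cells at a minimum of 8000. After thinning to 5000 UMIs the shares were 14.4% in Lta-/- and 15.4% in Foxp3eGFP cells, and 44.2% in the mature Treg-like cluster. At resolution 1.0 the highest cluster reached 63.8% and the lowest 0%.

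Counts of genes moved as follows, rising first and falling second. Settings that change the cells or the UMI minimum also change how many genes are tested, so these counts are not shares. The number tested was 9261 over all cells and 3458 inside the mature Treg-like cluster. Without the proliferating-like and the B, plasma or myeloid clusters it was 8568. Within 5000 to 8000 UMIs they were 210 and 408, in Lta-/- cells 139 and 300, and in Foxp3eGFP cells 143 and 298. Over 4 classes inside the mature Treg-like cluster they were 82 and 43, in Lta-/- cells 62 and 42, and in Foxp3eGFP cells 30 and 13. At a fold of 2 they were 163 and 502, in Lta-/- cells 101 and 344, and in Foxp3eGFP cells 162 and 440. Without the proliferating-like cluster 583 genes fell. Without that and the B, plasma or myeloid clusters they were 257 and 513, and 215 and 464 in Foxp3eGFP cells. With at least 300 UMIs per gene, 142 rose and 356 fell in Lta-/- cells and 196 rose in Foxp3eGFP cells. With 3 classes, 905 fell in Lta-/- and 518 rose in Foxp3eGFP cells.

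The summed Treg signature ratio of 1.05 was 0.96 at a minimum of 3000 UMIs, 1.38 at 8000, 0.74 within 5000 to 8000 and 0.84 thinned. It was 0.94 with 3 classes, 0.90 with cells weighted equally, 0.23 inside the mature Treg-like cluster, 0.83 without the proliferating-like cluster and 0.76 also without the B, plasma or myeloid clusters. The partner list changed sign to -0.16 within 5000 to 8000 UMIs, -0.042 thinned, -0.044 with cells weighted equally, -0.017 without the proliferating-like cluster and -0.045 also without the others, and the locus regulators to -0.047 within 5000 to 8000. Inside the mature Treg-like cluster the repressed genes changed to 0.081, the ligands to -0.017, the interferon response to -0.11, Hist1h1b to 1.26, Hist1h2ae to 1.85 and Tyms to 0.26. Lyz2 changed to 1.77 within 5000 to 8000 UMIs and 1.05 without the B, plasma or myeloid clusters, and Hist1h3c to 0.83 within 5000 to 8000. Without all those clusters Hist1h1b was 0.57, Hist1h3c 0.48 and Hist1h2ae 1.21. These reversed falls rest on few UMIs, and the cause was not tested.

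A Foxp3 count of 0 to 8 per cell limits what the classes separate, and the classes of 2 and of 3 or more hold 139 and 91 cells. With 1 mouse each, a difference between genotypes cannot be told apart from one between mice.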
